A study of Mus musculus with 4 samples.

Results

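Albumin, its relatives and other abundant plasma proteins are made by hepatocytes, and 10 of their genes were examined for called peaks of the glucocorticoid receptor (GR) and of E2A in mouse liver. They are Alb, Afp, Afm and Gc of the albumin family, the fetuin genes Ahsg and Fetub, the carrier genes Trf, Ttr and Rbp4, and Ambp. These 10 of 21938 protein-coding genes were chosen by name with results of these peak lists in view, in part for the share of the gene that lies under peaks, so that peak number, width and coverage are given as a description without a test. The peaks considered are those that the deposited annotation names for a member and those of any name within 50 kb of a member's transcription start. They numbered 31 of 4291 in GR replicate 1, 33 of 7334 in GR replicate 2, 32 of 4028 in E2A replicate 1 and 25 of 1892 in E2A replicate 2. The farthest peak inside the 50 kb limit lay 48.2 kb from the Afm start and the nearest one outside it 50.4 kb from the same start, and both belonged to Alb.

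ChIP-Seq was performed on whole livers of untreated male C57BL/6 mice of genotype E47+/+, fed chow and killed at ZT 10, that is late in the light phase. There were 2 biological replicates with an antibody against GR and 2 with an antibody against E2A. All samples are wild type, and the labels give no age. E2A ChIP is described as made in the livers used for GR, and the labels do not say which samples share a liver. The labels of both E2A samples also carry a text that names a GR ChIP, for the second in E47-/- mice, whereas their titles, antibody and genotype name E2A in wild type and were followed, and the description of the supplementary peak list calls the livers Dex-treated.

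Albumin is the main protein of blood plasma and carries fatty acids and many other small molecules, and alpha-fetoprotein is its counterpart in the fetal liver, where its gene is active before birth and silent in the adult. GR is a nuclear receptor that binds DNA when it has bound a glucocorticoid hormone such as corticosterone, and in the liver it occupies glucocorticoid response elements (GREs) at genes of metabolism. E2A is the product of the Tcf3 gene, whose splice forms E12 and E47 are basic helix-loop-helix proteins that bind the E-Box, CANNTG. In hepatocytes the promoters of plasma protein genes are known to be driven by liver-enriched factors such as HNF1, HNF4, C/EBP and FoxA.

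The deposited lists give the position and width of each peak and no read count, height or q-value. How many reads support a peak cannot be read from them, so the values below say where peaks were called and how far they extend, not how strong the binding was. Since whole liver was used, fewer cells with a bound site and less binding per cell cannot be told apart. The libraries differed in the number and the width of their peaks. GR replicate 2 had the most peaks and 139 of them were at least 2000 bp wide, against 21 in GR replicate 1, 19 in E2A replicate 1 and 25 in E2A replicate 2. The median width ran from 349 to 408 bp. The tissue was checked by called peaks over marker genes. Of 10 hepatocyte markers 9 met a GR peak in both replicates and 6 an E2A peak in both, beside 8.35% and 3.83% of all protein-coding genes. Cyp3a11 met no GR peak. The markers were chosen with earlier results of these data known, and include Tat and Pck1, which the paper names as known GR targets. Their count is thus a weak check. Over all protein-coding genes 73.3% met no peak in any sample. Of 35 markers of Kupffer, endothelial, stellate, bile duct, lymphoid, pancreatic and muscle cells 32 met none. The exceptions were the endothelial genes Stab2 and Pecam1, and Sox9 of bile duct cells. Stab2 met a peak in all 4 samples and Pecam1 a GR peak in both replicates, and neither was covered over more than 0.347%. Sox9 was covered to 4.01%, in GR replicate 2 only.

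Of the 10 genes, 7 met a GR peak in both replicates, namely Alb, Gc, Ahsg, Fetub, Ttr, Trf and Rbp4, and 5 met an E2A peak in both, namely Alb, Ahsg, Fetub, Trf and Rbp4. Those 5 met a peak in all 4 samples. Over all protein-coding genes 8.35% met a GR peak in both replicates, 3.83% an E2A peak in both and 2.02% a peak in all 4 samples. Afp, Afm and Ambp met no peak over the gene in any sample, as did 73.3% of all protein-coding genes. The genes differed widely in how much of them lay under peaks. In at least 1 sample 4 of the 10 genes were covered over at least 50% of their length, namely Alb, Ahsg, Ttr and Rbp4, whereas Gc and Fetub were never covered over more than 4.78%. Among 20350 protein-coding genes of at least 2000 bp, 0.246% reached 50% in at least 1 sample. Both counts rest on GR replicate 2, which held 4 of the 10 genes and 50 of all at this coverage, while each of the other samples held 1 of the 10, Alb, and 5 to 8 of all.

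**Figure D1:**
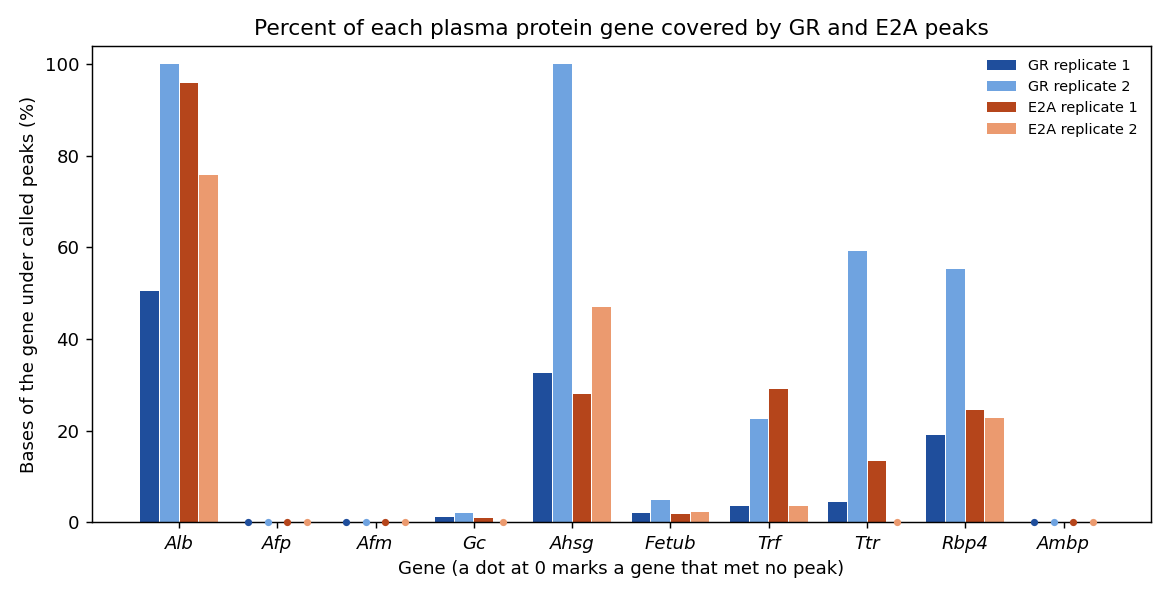
Bars give the percent of the bases of each gene (vertical axis) that lay under called peaks in each of the 4 samples, with GR in blue and E2A in orange, and dots at 0 mark genes without a peak. Alb stands at 50.4 to 100%, Ahsg at 27.9 to 100%, and Afp, Afm and Ambp at 0 in all samples.

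The albumin gene (ENSMUSG00000029368, chr5:90460897-90476602 in mm10, plus strand, 15706 bp and 15 exons) was covered by GR peaks over 50.4% of its length in replicate 1 and 100% in replicate 2, and by E2A peaks over 95.8% and 75.9%. The samples of both ChIPs were high, and their values overlapped. Among the 20350 genes Alb ranked 6th, 1st, 2nd and 5th in these samples, with 1 standing for the most covered gene (ties share a rank), and 2nd by the lowest of its 4 values. In GR replicate 2 a single peak of 17971 bp, the 2nd widest of that sample, began just before the start, at −225 bp, and ended past the 3′ end of the gene. The other samples had the gene in pieces, with 6 peaks in GR replicate 1, 3 in E2A replicate 1 and 7 in E2A replicate 2. A peak of similar extent began each series, with 4596 bp in GR replicate 1, 4551 bp in E2A replicate 1 and 4433 bp in E2A replicate 2. These peaks reached from just before the start to between 4190 and 4394 bp into the gene.

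The gene, in its RefSeq bounds, was also divided into 10 parts of equal length. Parts 1 and 2, which hold the start, were covered to 100% in all 4 samples. In GR replicate 1 coverage was 2.73% in part 6, 0 in part 8 and 63.9% in part 10, whereas E2A replicate 1 stayed at 82.1% or more in every part. E2A replicate 2 had its lowest value, 34.1%, in part 7. Exons and the rest of the gene were covered to different extents by sample. In GR replicate 1 exons were covered to 36.2% and the rest to 52.5%, and in E2A replicate 2 the order was the other way, with 83.1% and 74.8%. Coverage went on beyond the gene. Of the 2 kb after its end, 44.3% and 100% lay under GR peaks and 97.5% and 47.2% under E2A peaks. Of the 2 kb before the start, no sample had more than 15.0%. The merged region over the 4 samples spanned 18073 bp.

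**Figure D2:**
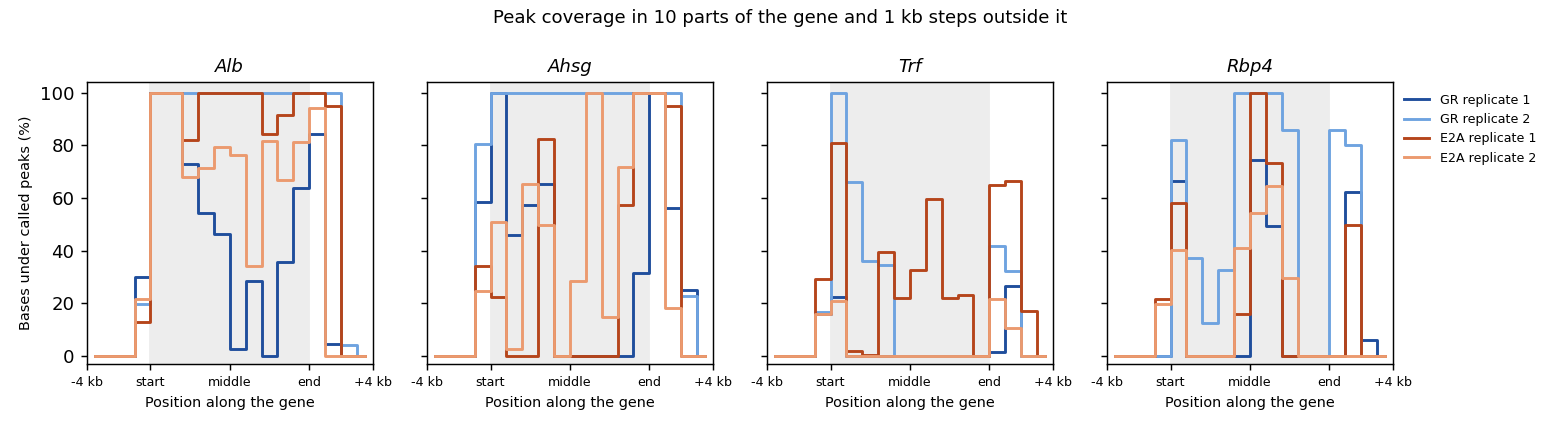
Lines give the percent of bases under called peaks (vertical axis) for Alb, Ahsg, Trf and Rbp4 in each of the 4 samples. They run over 10 equal parts of the RefSeq gene (grey band, from start to end) and 1 kb steps for 4 kb on either side. In Alb parts 1 and 2 stand at 100% in all samples, and in Ahsg and Alb the coverage runs past the end of the gene.

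Within 50 kb upstream of Alb, only GR had peaks that lay away from the start. GR peaks were called in both replicates at 4 places, beginning 36.3, 21.8, 13.5 and 11.4 kb before the start, and in replicate 1 alone at 46.7 kb. No E2A peak of either replicate lay wholly within these 50 kb, although those over the start began at −156 and −242 bp. GR regions without E2A were common, since 30.7% of 8795 GR regions of the whole series met an E2A region. The nearest E2A peak before Alb was 236.7 kb away in replicate 1 and 1001.0 kb away in replicate 2. The place nearest to the gene differed in width between the GR replicates, with 2020 bp in replicate 1 and 443 bp in replicate 2. The albumin gene is known to have an enhancer far upstream of its promoter, and no read-out of enhancer activity was made here.

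Afp, which encodes alpha-fetoprotein, and Afm, which encodes the vitamin E carrier afamin, follow Alb on the same strand. The gap from the end of Alb to the start of Afp is 14.1 kb and that from Afp to Afm is 10.0 kb. Neither gene met a peak in any sample. The deposited annotation nevertheless names 1 peak for Afp in GR replicate 1, 1 in E2A replicate 1 and 1 in E2A replicate 2. All of these lay at the 3′ end of Alb or just after it, at least 12.2 kb before the Afp start, and the E2A peaks overlapped Alb itself. The only other peaks within 50 kb of these starts, beyond those of Alb, lay 41.7 to 43.3 kb after the Afm start and were named for 5830473C10Rik, in GR replicate 2 and both E2A replicates.

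**Figure D3:**
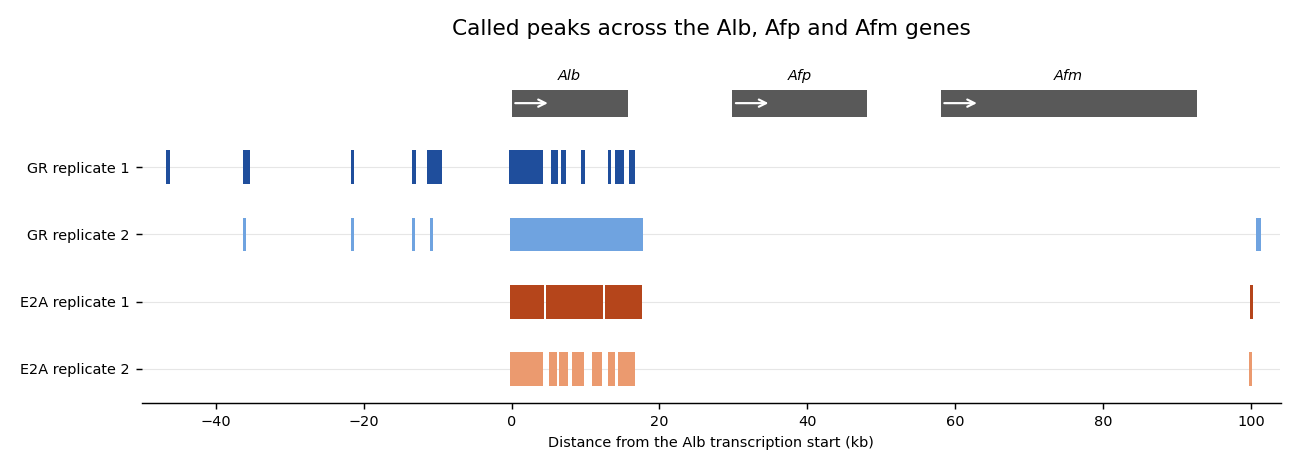
Boxes mark called peaks of each sample by distance from the Alb start (horizontal axis, kb), below the Alb, Afp and Afm genes with arrows for the direction of transcription. Alb is filled in all 4 samples, only GR has peaks between 46.7 and 9.4 kb before its start, and Afp and Afm are empty.

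Gc, the gene of the vitamin D-binding protein (ENSMUSG00000035540, chr5:89417522-89457898, minus strand, 40377 bp), lies about 1003.0 kb from Alb on the same chromosome and was hardly covered. GR peaks took up 1.12% and 2.06% of it and E2A peaks 0.842% and 0. Both GR values were above both E2A values, which held for 1 of the 10 genes and for 6.06% of genes of at least 2000 bp. The reverse order held for 0 of the 10 genes and for 1.19% of all. A region of 560 bp in the first intron, 6.5 to 7.1 kb from the start, was called in both GR replicates and in E2A replicate 1. A GR peak lay over the start in replicate 2 only. E2A peaks before the start were called in 1 replicate each, at 1.4 and 9.4 kb in replicate 1 and at 2.0 kb in replicate 2. A place that began 179165 to 179270 bp from the start, beyond the other end of the gene, was also named for Gc and was called in all 4 samples with widths of 275 to 389 bp.

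The promoters of the albumin family are shown because these genes share a sequence feature and differ in how far peaks cover them. The windows are from 250 bases before to 50 bases after the RefSeq start in GRCm38.p6, read 5′ to 3′ on the strand of the gene, at chr5:90460620-90460919 for Alb, chr5:90490464-90490763 for Afp, chr5:90518699-90518998 for Afm and chr5:89457849-89458148 for Gc. Capitals mark matches to the HNF1 palindrome GTTAATNATTAAC with up to 2 mismatches.
Alb: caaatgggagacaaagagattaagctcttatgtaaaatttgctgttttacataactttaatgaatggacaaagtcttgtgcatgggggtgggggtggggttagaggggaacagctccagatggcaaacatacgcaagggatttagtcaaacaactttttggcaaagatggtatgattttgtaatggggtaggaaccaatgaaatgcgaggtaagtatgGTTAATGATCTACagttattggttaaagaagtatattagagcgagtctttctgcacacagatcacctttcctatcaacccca
Afp: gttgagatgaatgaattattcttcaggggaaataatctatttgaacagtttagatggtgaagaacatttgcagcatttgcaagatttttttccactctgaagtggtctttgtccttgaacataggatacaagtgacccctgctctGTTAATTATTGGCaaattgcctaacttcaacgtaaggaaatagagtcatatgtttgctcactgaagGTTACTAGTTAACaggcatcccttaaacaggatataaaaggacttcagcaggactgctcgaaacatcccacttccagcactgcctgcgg
Afm: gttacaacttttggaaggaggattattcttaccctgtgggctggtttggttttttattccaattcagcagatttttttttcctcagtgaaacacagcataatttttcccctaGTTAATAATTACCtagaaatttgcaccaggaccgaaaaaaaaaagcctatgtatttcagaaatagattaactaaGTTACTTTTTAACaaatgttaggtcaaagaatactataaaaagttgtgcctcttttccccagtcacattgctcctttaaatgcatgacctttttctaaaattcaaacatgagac
Gc: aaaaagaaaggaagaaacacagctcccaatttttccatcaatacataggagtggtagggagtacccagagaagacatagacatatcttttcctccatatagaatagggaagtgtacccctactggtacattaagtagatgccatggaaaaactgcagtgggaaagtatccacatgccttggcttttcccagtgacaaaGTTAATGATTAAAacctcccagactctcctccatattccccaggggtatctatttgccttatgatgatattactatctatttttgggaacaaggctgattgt
All 4 promoters held such a match, 1 each in Alb and Gc and 2 each in Afp and Afm, and the promoters of the other members in the RefSeq table, Ahsg, Fetub, Rbp4 and Ambp, held none. Of all 32851 RefSeq promoter windows 1.36% held one. The match of Alb stands 32 to 20 bases before the start with 2 mismatches, and that of Gc 52 to 40 bases before it with 1. In Afp the matches begin 105 and 39 bases before the start, and in Afm 138 and 64 bases. The Alb window was covered by peaks to 100% and 82.7% in GR and to 59.7% and 88.3% in E2A, the Gc window to 27.3% in GR replicate 2 only, and those of Afp and Afm not at all. E-Boxes, which are not marked above, were found in these 4 promoters too, with 2 in Alb, 4 in Afp and 1 each in Afm and Gc. Of all promoter windows 72.3% held at least 1. Among the members in the RefSeq table only the promoter of Ahsg held a GRE match, beside 14.9% of all windows. A match is a description of the sequence, and binding of HNF1 was not measured.

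Of the upstream GR regions of Alb that were called in both replicates, those of at most 2000 bp were searched for the GRE in 300 bases at their centre, on both strands, with up to 2 mismatches to the 15-base GRE consensus. The region that begins 13.5 kb before the start held 1 match, as did the intron region of Gc. Both windows are printed on the plus strand, at chr5:90447543-90447842 for Alb and chr5:89450987-89451286 for Gc, with the match in capitals.
Alb upstream: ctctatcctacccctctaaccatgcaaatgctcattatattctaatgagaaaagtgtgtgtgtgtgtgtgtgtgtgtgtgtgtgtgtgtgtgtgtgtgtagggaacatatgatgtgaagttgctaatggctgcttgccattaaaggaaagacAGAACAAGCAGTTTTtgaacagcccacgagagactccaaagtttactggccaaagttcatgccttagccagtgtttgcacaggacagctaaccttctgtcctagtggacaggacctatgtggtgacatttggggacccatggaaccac
Gc intron: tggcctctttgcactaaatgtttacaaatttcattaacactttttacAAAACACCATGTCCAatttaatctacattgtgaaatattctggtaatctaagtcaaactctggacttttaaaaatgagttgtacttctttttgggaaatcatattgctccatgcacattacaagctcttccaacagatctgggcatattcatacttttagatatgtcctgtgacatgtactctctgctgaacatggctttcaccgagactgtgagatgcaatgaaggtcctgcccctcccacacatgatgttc
The other upstream regions of Alb in this search held none. Among GR regions of at most 2000 bp near the 10 genes, 5 of 24 held a GRE match in this window (20.8%), beside 23.0% of 8647 GR regions of the whole series. Among E2A regions the match was found in 8 of 32 near the 10 genes and in 15.1% of 4748. The E-Box CANNTG was present in 21 of 24 GR windows (87.5%, beside 68.6% of all) and in 26 of 32 E2A windows (81.2%, beside 72.8%). The regions of Ttr were left out of the members' side of these counts.

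Ahsg and Fetub encode fetuin-A and fetuin-B, plasma proteins of the cystatin family that hold calcium phosphate in solution and protect the egg coat from early hardening, respectively. They lie 18.9 kb apart on chromosome 16 in the same direction. Ahsg (ENSMUSG00000022868, chr16:22891277-22899449, 8173 bp) was covered by GR over 32.6% and 100% and by E2A over 27.9% and 47.0%, and the values of the ChIPs overlapped. It ranked 17th, 1st, 13th and 9th of 20350 genes and 6th by its lowest value. As with Alb, GR replicate 2 had 1 peak over the whole gene, here of 10468 bp, where the others had 5 peaks in GR replicate 1, 3 in E2A replicate 1 and 5 in E2A replicate 2. The last of 10 equal parts of the RefSeq gene was covered to 100% in GR replicate 2 and both E2A replicates and to 31.5% in GR replicate 1. The 2 kb after the end were covered to 78.2% and 100% by GR and to 97.5% and 59.1% by E2A. Many of the peaks over Ahsg carry the name Gm30505 in the deposited annotation, a neighbouring predicted gene that was given 10 peaks over the 4 samples, so that a count by name alone misses them.

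Before Ahsg, a region 10.0 to 9.3 kb from the start was called in both GR replicates and E2A replicate 1. GR had a further peak at 4.5 kb in replicate 1 and at 11.3 kb in replicate 2, and E2A replicate 1 one at 33.4 kb. The RefSeq promoter window of Ahsg was covered to 100% in both GR replicates and E2A replicate 1 and to 95.7% in E2A replicate 2.

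Fetub (ENSMUSG00000022871, chr16:22918334-22939778, 21445 bp) was covered by narrow peaks, at 1 site common to all samples. Its coverage was 2.11% and 4.78% by GR and 1.73% and 2.29% by E2A, and these values overlapped. A region of 609 bp, 1.5 to 2.2 kb after the annotated start, was called in all 4 samples with peaks of 371 to 554 bp. A second region, of 472 bp and 3991 to 4462 bp from the start, was called in GR replicate 2 only and held a GRE match. The common region lies at the second of the 2 RefSeq starts of the gene. The promoter window of that start was covered to 79.0% and 100% by GR and to 70.7% and 100% by E2A, while the window of the first start met no peak in any sample. The 300 bases at the centre of the GR region, at chr16:22920034-22920333 on the plus strand, are shown because the site is narrow and common to both ChIPs, with the E-Box in capitals.
Fetub second start: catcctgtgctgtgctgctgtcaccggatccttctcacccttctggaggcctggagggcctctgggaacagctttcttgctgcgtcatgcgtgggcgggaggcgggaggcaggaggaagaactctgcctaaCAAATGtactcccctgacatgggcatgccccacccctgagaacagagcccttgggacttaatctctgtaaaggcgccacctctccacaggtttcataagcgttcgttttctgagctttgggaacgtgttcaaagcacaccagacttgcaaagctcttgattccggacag
This window held 1 E-Box and no GRE match. After Fetub, peaks named for Hrg, the gene of the plasma protein histidine-rich glycoprotein, were called in both GR replicates and E2A replicate 1.

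**Figure D4:**
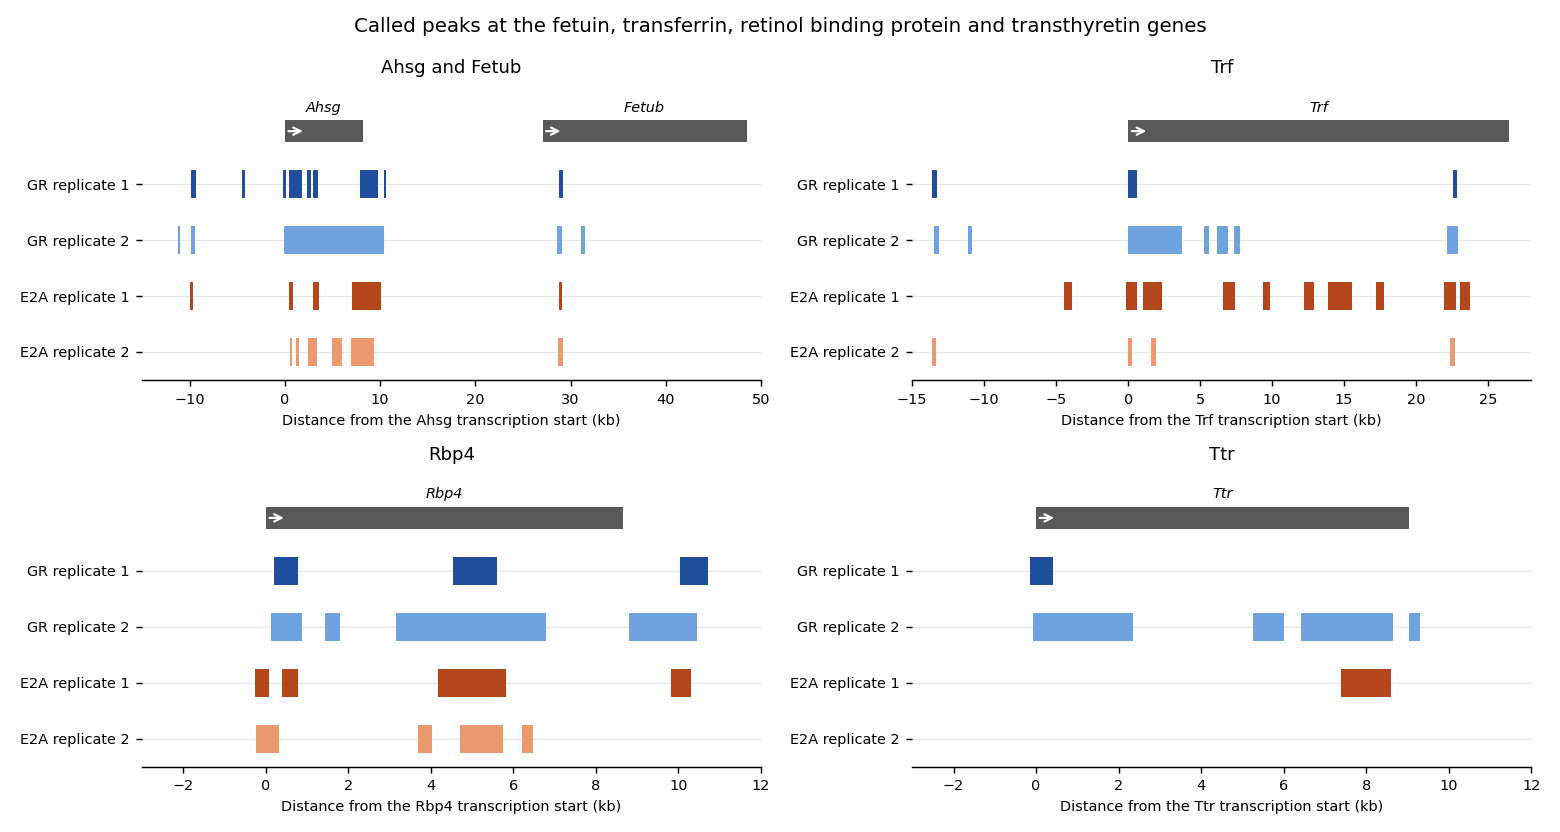
Boxes mark called peaks of each sample by distance from the transcription start (horizontal axes, kb, in the direction of transcription) at Ahsg and Fetub, Trf, Rbp4 and Ttr. Ahsg is filled by 1 peak in GR replicate 2 and by 3 to 5 peaks in the others, Fetub has 1 narrow site common to all samples, and Ttr has no peak in E2A replicate 2.

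Ambp encodes a precursor that is cut into alpha-1-microglobulin, a small heme-binding plasma protein, and bikunin, a protease inhibitor (ENSMUSG00000028356, chr4:63143275-63154799, minus strand, 11525 bp). It met no peak. Only E2A had peaks near it, at 2.5 to 1.9 kb before the start in both replicates and at 31.9 to 31.6 kb in replicate 1, while the nearest GR peak was 75.3 kb away in replicate 1 and 77.9 kb in replicate 2. The peaks at 2.5 to 1.9 kb were 374 and 422 bp wide. The 300 bases at the centre of the place called in both E2A replicates, chr4:63156812-63157111 on the plus strand, are shown as the E2A counterpart to the GR regions before Alb, with E-Boxes in capitals.
Ambp upstream: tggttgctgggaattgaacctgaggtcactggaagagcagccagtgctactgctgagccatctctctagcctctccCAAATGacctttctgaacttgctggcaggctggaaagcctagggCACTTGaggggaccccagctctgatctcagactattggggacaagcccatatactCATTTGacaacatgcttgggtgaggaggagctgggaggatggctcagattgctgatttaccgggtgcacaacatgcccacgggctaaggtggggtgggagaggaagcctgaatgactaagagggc
The window held 3 E-Boxes and no GRE match. Of all E2A regions of at most 2000 bp, 72.8% held at least 1 E-Box in a window of this length.

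Trf encodes transferrin, which carries iron in plasma (ENSMUSG00000032554, chr9:103204001-103230444, minus strand, 26444 bp). GR covered 3.48% and 22.6% of it and E2A 29.1% and 3.50%. GR replicate 1 and E2A replicate 2 were low, GR replicate 2 and E2A replicate 1 were high, and the values of the ChIPs overlapped. Peaks over the gene numbered 2 and 5 in GR and 9 and 3 in E2A. Common to all samples were a region at the start, which together spanned 3849 bp, and a region of 975 bp that lay 21.9 to 22.9 kb from the start, near the RefSeq end of the gene. The latter was named for Srprb in every sample. Between them the samples differed, with 4 places in the gene called in E2A replicate 1 alone. A place 13.6 to 13.1 kb before the start was called in both GR replicates and in E2A replicate 2.

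Rbp4 encodes the retinol carrier of plasma (ENSMUSG00000024990, chr19:38116629-38125281, minus strand, 8653 bp), which circulates in complex with transthyretin. GR covered 19.1% and 55.4% of it and E2A 24.4% and 22.7%. GR replicate 2 was high, and the E2A values lay between the GR values. By its lowest value Rbp4 ranked 9th of 20350 genes. A region 3.2 to 6.8 kb from the start was called in all 4 samples, with a widest peak of 3642 bp in GR replicate 2 and of 1077, 1645 and 1035 bp in GR replicate 1, E2A replicate 1 and E2A replicate 2. Near the start a merged region of 1141 bp was called in all 4 samples, and the ChIPs differed in how far they covered each RefSeq start window. The RefSeq window of the upstream start was covered by E2A to 88.0% and 82.7% and by GR to 0 in both replicates, whereas the window of the downstream start was covered to 100% by GR in both and to 43.7% and 30.3% by E2A. A place after the end of the gene, 8.8 to 10.7 kb from the start, was called in both GR replicates and E2A replicate 1.

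Ttr encodes transthyretin, which carries thyroxine and the retinol-binding protein (ENSMUSG00000061808, chr18:20665280-20674321, 9042 bp). GR covered 4.46% and 59.2% of it and E2A 13.4% and 0. Only GR was called at the start, by a peak of 539 bp in replicate 1 and of 2443 bp in replicate 2. The peak of E2A replicate 1, of 1213 bp, lay toward the 3′ end, 7378 to 8590 bp from the start, inside a GR replicate 2 peak of 2233 bp. In E2A replicate 2 the nearest peak was 270.3 kb from the gene.

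GR and E2A were compared over the 10 genes as a group. The mean percent covered was 11.3% and 34.4% in the GR replicates and 19.3% and 15.1% in the E2A replicates. The GR mean of 22.9% (SD 16.3, n = 2) and the E2A mean of 17.2% (SD 2.96, n = 2) differed by 5.64 percentage points, which is less than the spread between the GR replicates. With 2 samples against 2, a two-sided exact permutation test cannot go below p = 0.333, and none was made. The sign of the difference rests on GR replicate 2, since without it the difference was −5.90 points. It also rests on wide peaks: with peaks of at most 2000 bp alone the difference was −3.04 points. GR minus E2A was −10.7 points for Alb and −3.26 points for Trf, and 28.8, 25.1 and 13.7 points for Ahsg, Ttr and Rbp4.

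**Figure D5:**
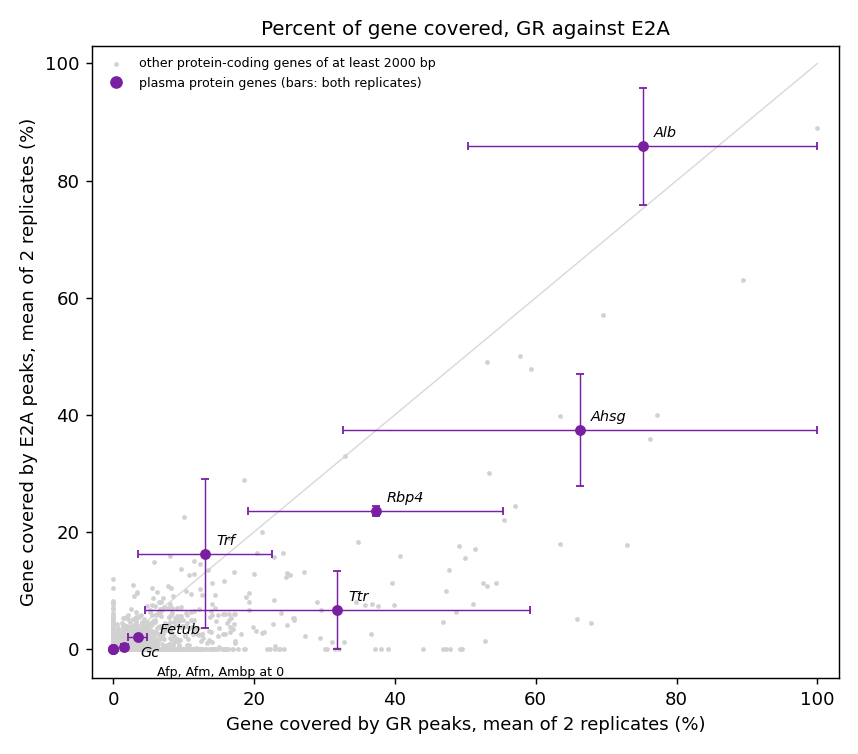
Each point is a protein-coding gene of at least 2000 bp with a peak, by the mean percent of the gene under GR peaks (horizontal axis) and under E2A peaks (vertical axis), and for the 10 plasma protein genes (purple) bars reach to both replicates. The bars of Alb span 50.4 to 100% for GR and 75.9 to 95.8% for E2A, and Afp, Afm and Ambp stand at 0.

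The covered bases of the 10 genes were compared between samples. Of those under GR replicate 1 peaks, 99.6% lay under GR replicate 2 peaks, 82.9% under E2A replicate 1 peaks and 73.7% under E2A replicate 2 peaks. Of those under E2A replicate 2 peaks, 99.3% lay under GR replicate 2 peaks and 84.4% under E2A replicate 1 peaks. GR replicate 2 covered 41851 bases of these genes in all, against 14453 in GR replicate 1, 29048 in E2A replicate 1 and 19134 in E2A replicate 2. Alb held more of these bases than any other of the 10 genes in every sample, and GR replicate 2 covered Alb and Ahsg in full, so that the shares lying under its peaks were fixed for those genes.

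Peaks in the windows of 50 kb around the 10 starts were then merged over the 4 samples where they shared at least 1 bp. This gave 46 regions, of which 14 held peaks of both ChIPs, 19 of GR only and 13 of E2A only. Over the genes 10 of 22 regions were common to both ChIPs, and before the starts 2 of 18 were, with 9 of GR only and 7 of E2A only. Those over the genes included merged regions of 18073 bp at Alb and 10802 bp at Ahsg. Shares by place were not computed for the whole series, so no difference between places is read from these counts. In all 4 samples 7 regions were called, and 25 were called in 1 sample. When peaks were merged within each ChIP, 15 of 34 GR regions met an E2A region (44.1%, 95% Wilson interval 28.9 to 60.5%), beside 30.7% of GR regions of the whole series. Of 37 E2A regions 24 met a GR region (64.9%, interval 48.8 to 78.2%), beside 58.1% of all. Both intervals hold the value of the whole series, and they cover counting error only. They treat regions as independent, which these are not. All E2A peaks over Alb met the same GR replicate 2 peak of 17971 bp, and all those over Ahsg the same one of 10468 bp. The intervals are thus likely too narrow. The percent of GR regions that met an E2A region was 23.5% without E2A replicate 1 and 70.0% without GR replicate 2. No whole-series share is given here for these settings, so neither value can be set against the 30.7% of all 4 samples.

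A list of 20 other plasma protein genes was examined in the same way. Of these 8 met a GR peak in both replicates, 6 an E2A peak in both and 2, Hp and Selenop, a peak in all 4 samples, while Orm2 and Itih1 met none. Over all protein-coding genes the first 3 shares were 8.35%, 3.83% and 2.02%, and 73.3% met none. The median over the list of the mean percent covered was 1.34% for GR and 0.215% for E2A, beside 8.24% and 4.36% over the 10 genes and 0 and 0 over all protein-coding genes. At least 50% of the gene was covered in 3 of the 20, each in GR replicate 2, beside 0.246% of genes of at least 2000 bp in at least 1 sample. They are Hp, the gene of the hemoglobin scavenger haptoglobin (91.1%), Hpx, that of the heme carrier hemopexin (73.1%), and Selenop, that of the selenium carrier of plasma (70.2%). In the other samples Hp stood at 5.78 to 6.70%, Hpx at 0 to 3.70% and Selenop at 4.18 to 10.4%.

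Broad coverage in all 4 samples was not limited to genes of plasma proteins. Of genes of at least 2000 bp outside the 10, the highest lowest value was that of Pck1, the gene of a key enzyme of gluconeogenesis, with 100% in both GR replicates and 100% and 78.0% in E2A. It was followed by Errfi1, a feedback inhibitor of the EGF receptor, with a lowest value of 39.0%, Apoa5, an apolipoprotein of triglyceride metabolism, with 37.3%, and the predicted gene Gm21738 with 32.7%. Gm21738 (3074 bp) stood at 32.9% and 32.8% in GR and at 32.7% and 33.1% in E2A. Its values hardly differed between the antibodies, unlike those of Errfi1 (39.0 to 100%), and the reason was not tested. Zfp36, Apoe, Dusp23, Gm10300 and Leng9 were also among the 10 highest, with lowest values of 11.9 to 19.9%. These genes are short, from 2199 bp (Dusp23) to 3470 bp (Zfp36), beside 15706 bp for Alb. A narrow peak takes up a larger share of a short gene, so these values do not show broad peaks. The genes whose 4 values were most like those of Alb were Pck1, with a mean absolute difference of 14.0 percentage points over the 4 samples, Errfi1 with 17.2, Apoa5 with 25.0, Ahsg with 28.6 and G6pc, the gene of glucose-6-phosphatase, with 28.9.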

How the data were processed

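GR and E2A ChIP-Seq peaks of 4 wild-type liver samples were analysed. Per the labels and methods, the authors mapped reads to the mm10 genome (BWA-MEM 0.7.13), removed duplicates with Picard, kept uniquely mapped read pairs, downsampled them to a fixed number that differed between GR and E2A, and called peaks per sample with MACS2. The submitters' processing notes give Picard 1.119 and MACS2 2.1.0, whereas the methods give other versions. Threshold, control and annotation tool are not given in the sources used here. The deposited values are peak start, end, width and distance to a start in bp, which are not normalized. Starts equal those of the accompanying BED lists, so positions may be off by 1 bp. The GR replicate numbers follow the labels, and the names of the lists give them the other way round.

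Genes are those of GENCODE M21, and promoters and second starts those of RefSeq (GRCm38.p6, the assembly of mm10), whose table held promoters of 8 of the 10 members. The 10 equal parts of a gene and the 2 or 4 kb before and after it also follow RefSeq bounds. These differ from GENCODE in places: Ahsg starts at 22891277 in GENCODE and at 22892015 in RefSeq. A gene met a peak at 1 shared bp, and percent covered is the share of its bases under the union of peaks. Motifs were searched in 300 bp at the centre of regions of at most 2000 bp: the GRE and HNF1 palindromes with up to 2 mismatches, and exactly CANNTG, C/EBP (TTNCNNAA with purines at the third and the fifth base and a pyrimidine at the sixth), HNF4 (CAAAGTCCA or CAAAGTTCA), HNF6 (ATNGATN with pyrimidines at N), FOX (TGTTTAN with a pyrimidine at N) and STAT5 (TTCNNNGAA). E-Box counts include any overlap with another motif. Members and gene lists were chosen with earlier results of these data known. All members are named, with 20 further plasma protein genes, the 10 genes of at least 2000 bp outside the members with the highest lowest percent covered (1 of them is not reported here), the 5 most like Alb, and neighbours named for peaks in at least 2 samples. Python 3.11.15, numpy 2.4.6, pandas 2.3.3, scipy 1.17.1, pysam 0.24.0 and matplotlib 3.10.9 were used, and the code was tested on simulated peaks and planted motifs.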

Additional observations from a re-analysis of the deposited data

How the results depend on the processing

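The count of 7 genes with a GR peak in both replicates stayed within 1.5 times under 8 of 8 alternatives. The count of 5 genes with an E2A peak in both replicates became 8 when peaks were given to the gene the deposited annotation names. This adds Afp and Ambp by peaks outside those genes, and Gc, whose peaks in E2A replicate 2 lay outside it. The count became 3 when only peaks at least as wide as the median of their sample were used. Under 6 other alternatives it stayed within 1.5 times. The difference of 5.64 percentage points in mean percent covered, GR minus E2A, turned to −3.04 with peaks of at most 2000 bp, and ran from −5.90 (without GR replicate 2) to 17.2 (without GR replicate 1) when each sample was left out. It fell to 1.16 over the 50 kb windows around the starts, and under the other alternatives it kept its sign, including RefSeq gene bounds (5.43), which were added after seeing the data. The 44.1% of GR regions that met an E2A region ran from 23.5% (without E2A replicate 1) to 70.0% (without GR replicate 2), and moved by less than its interval under 7 of 9 alternatives. No whole-series share is given here for these alternatives. The causes were not tested. No paired analysis was possible because the labels do not say which GR and E2A samples share a liver. The lists hold no counts, so depth, peak height and a stricter threshold could not be examined, and with 2 samples per ChIP no difference could pass an exact test.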

Other observations

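Sequence matches that belong to no comparison above concern liver-enriched factors. The exact HNF4 consensus was found in 2 of 24 GR windows near the 10 genes (8.33%, beside 2.74% of all GR windows), both of them upstream regions of Alb, and in 0 of 32 E2A windows (beside 3.41%). The C/EBP consensus was found in 4 of 32 E2A windows (12.5%, beside 11.1% of all) and in 0 of 24 GR windows (beside 6.63%). The HNF1 palindrome was found in 2 of 32 E2A windows (6.25%, beside 3.24% of all), both before the Gc start, and in 0 of 24 GR windows (beside 2.38%). FOX, HNF6 and STAT5 matches were found in 3, 2 and 1 of 24 GR windows (12.5%, 8.33% and 4.17%, beside 9.31%, 7.61% and 10.4% of all) and in 4, 2 and 3 of 32 E2A windows (12.5%, 6.25% and 9.38%, beside 14.3%, 10.9% and 8.24%). At these numbers a share rests on a few regions, and no difference was tested.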
